A study of Arabidopsis thaliana with 6 samples.

Results

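Auxin, the growth hormone indole-3-acetic acid, is moved, sensed and inactivated by the products of a small number of gene families, and 46 Arabidopsis genes from 6 of these families were followed here. They were taken as a fixed list of gene identifiers, chosen by family, with earlier results of these data known: 23 Aux/IAA repressors, 6 GH3 conjugating enzymes, 4 PIN exporters, 3 AUX1/LAX importers, 6 auxin response factors (ARF) and 4 TIR1/AFB receptors. Of these, 32 were listed in the count table, and all 32 reached 5 reads in at least 1 library, among 10622 genes that did so. The 14 others (IAA1, IAA2, IAA3, IAA4, IAA5, IAA6, IAA8, IAA11, IAA18, IAA26, IAA29, GH3.6, ARF19 and ARF5) were not analysed here.

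The RNA came from whole seedlings of the *flu* 1-1 mutant in the Col-0 ecotype, 2 weeks old, in which protochlorophyllide builds up in darkness and releases singlet oxygen when light returns. Seedlings lay in water in darkness for 4 h or for 0 h and then received 30 min of light at 30 µE, with 3 libraries per group. Both groups carried the mutation, and the groups differ in the length of darkness. No group was kept for 4 h in the light, and no wild type was among the samples. Darkness, time in water, time of day and any part of the mutation in the changes therefore cannot be told apart. A treatment field of the labels words the hours as exposure to light. The protocol and design text, which place the hours in darkness, were followed. Growth was in continuous light by the labels and in a light and dark cycle by the study's methods, whose data list assigns this record to a cycloheximide treatment, whereas the titles and labels name *flu*. The methods describe replicates of pooled seedlings, the labels do not say that they were separate cultures, so that a p-value here measures spread among the samples sequenced.

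When auxin binds a TIR1/AFB receptor, the receptor takes hold of an Aux/IAA protein and marks it for destruction, which frees the ARF that the Aux/IAA had held inactive. Many Aux/IAA and GH3 genes are themselves switched on by auxin, so their transcripts are widely read as reporters of the hormone. GH3 enzymes join auxin to amino acids, AUX1/LAX carriers bring it into the cell and PIN carriers let it out. The comparison asked which of these transcripts differed when *flu* seedlings reached the light after 4 h of darkness.

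Total reads assigned to genes were 2185464, 1147712 and 1012425 in the 4 h libraries and 1573130, 1924910 and 1487666 in the 0 h libraries, so that 3 reads correspond to between 1.37 and 2.96 CPM before scaling. Levels are given as CPM, read counts scaled to a common library size, from tags at the 3′ ends of transcripts. FLU (AT3G14110), the mutated gene, was at 154, 215 and 191 CPM in the 4 h group, against 172, 110 and 136 CPM in the 0 h group (log2 fold change 0.41, edgeR adjusted p = 0.124). A 3′ tag does not report the lesion, so this level checks nothing about the genotype. The 6 leaf markers summed to 38041, 36164 and 29091 CPM in the 4 h group, against 37873, 43405 and 43020 CPM in the 0 h group. Most of this sum was RBCS1A, whose log2 fold change was -0.01. The other 5 were lower after 4 h at an edgeR adjusted p under 0.05, at log2 fold changes between -1.74 and -0.61. Root markers PER57 and PER27 were in the count table but were dropped, because the reference gives their identifiers another name. The 6 root markers kept summed to 530, 547 and 272 CPM in the 4 h group, against 426, 582 and 421 CPM in the 0 h group. This sum follows TIP2;2. Of these 6, TIP2;3 was higher and LRX1 lower at an edgeR adjusted p under 0.05. The log2 fold change was below 0 in 5 of the 6, with a median of -0.78. It was below 0 in 5720 of the 10622 genes tested, with a median of -0.06. No marker was at 0 in every library. The part of these markers in the results below was not tested, and in whole seedlings fewer cells of a type and less RNA per cell cannot be told apart.

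The auxin genes moved in both directions. IAA7 and IAA16 rose after 4 h of darkness, and IAA17, GH3.3, AUX1 and AFB3 fell, at an edgeR adjusted p under 0.05 with adjustment over all genes tested. These 6 are 18.8% of the 32 measured members, beside 16.6% of all genes tested, so the count itself says nothing particular about auxin genes. By direction, 2 members rose, where 8.37% of all genes did, and 4 fell, where 8.18% did. The median log2 fold change, 4 h over 0 h as for all fold changes given, was -0.13 over the 32 members and -0.06 over all genes, with 15 members above 0 and 17 below. The 3 libraries of each group did not overlap in 13 members (40.6%), beside 32.3% of all genes, and 11 members (34.4%) had an unadjusted p under 0.05, beside 28.6% of all genes. Setting the members that had 1 read in the 4 h group, GH3.1 and AFB5, to their ratio against 3 reads left all medians as they were. Both genes stayed below the medians of the members and of their classes, so this does not test the medians.

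**Figure D1:**
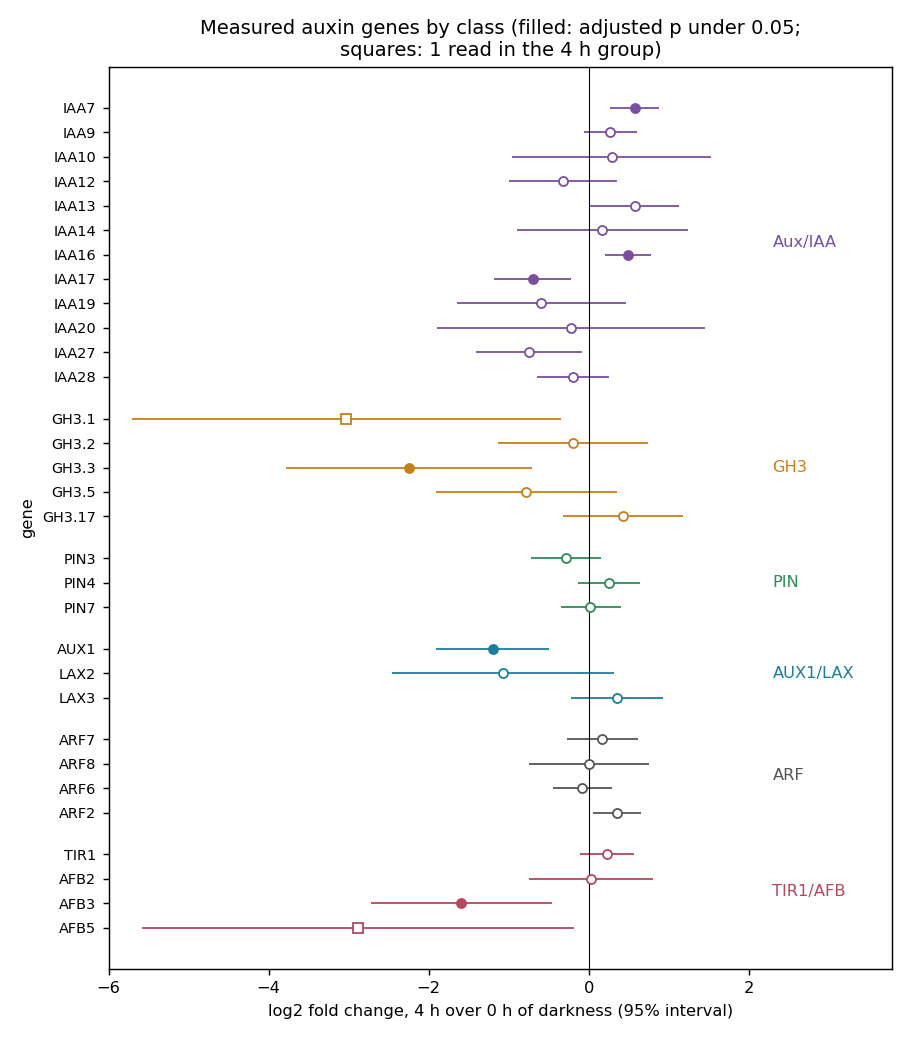
Log2 fold change (x axis, 4 h over 0 h of darkness) of 31 of the 32 measured auxin genes (y axis), grouped and coloured by class, with lines for the 95% interval of the edgeR fit. Filled points passed the test, and squares mark GH3.1 and AFB5, which had 1 read in the 4 h group; IAA7 and IAA16 lie to the right of 0, and IAA17, GH3.3, AUX1 and AFB3 to the left.

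Among the Aux/IAA repressors, 12 of 23 were measured, of which 2 rose, 1 fell and 9 did not pass the test, with a class median of -0.01. The rise was in IAA7 and IAA16, and the fall in IAA17. All 3 belong to the repressors with a short conserved stretch, the degron, by which the receptor holds them. Its core codes for glycine, tryptophan, proline, proline and valine. The coding sequence of the 3 genes around this core is shown to let a reader see how alike they are at the part that auxin perception acts on. Capitals mark the 15 bases of the core codons, read from RefSeq TAIR10.1.
IAA7: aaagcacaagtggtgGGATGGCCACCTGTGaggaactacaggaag
IAA16: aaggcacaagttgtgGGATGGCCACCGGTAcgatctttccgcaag
IAA17: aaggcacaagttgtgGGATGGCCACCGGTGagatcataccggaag
The capitals lie at chr3:8195577-8195591 on the plus strand in IAA7 (codons 85 to 89), at chr3:1289736-1289750 on the minus strand in IAA16 (codons 73 to 77) and at chr1:1136947-1136961 on the plus strand in IAA17 (codons 85 to 89). All 3 cores code for the same amino acids. The core acts in the protein, and its part in the transcript changes was not tested. Of the 12 measured repressors, 7 had this core, among them IAA9, IAA14, IAA19 and IAA28, which did not pass the test. Another 4 (IAA10, IAA12, IAA13 and IAA27) coded for isoleucine or leucine in place of the valine, and IAA20 had no such core. The coding sequences of IAA16 and IAA17 were identical at 71.6% of aligned bases, those of IAA7 and IAA17 at 74.8% and those of IAA7 and IAA16 at 70.3%.

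IAA7 (AT3G23050, chr3:8194606-8197161, plus strand, 5 exons), known as AXR2 from mutants that no longer respond to auxin, was at 389, 461 and 444 CPM in the 4 h group, against 261, 316 and 287 CPM in the 0 h group. Every 4 h library lay above every 0 h library. The mean was 431 ± 37.4 CPM after 4 h and 288 ± 27.4 CPM after 0 h (SD, n = 3 each), a 1.49-fold rise (log2 fold change 0.58, SE 0.15, 95% interval 0.27 to 0.88, edgeR adjusted p = 0.00704). The call was lost without 0 h replicate 1, where the log2 fold change was 0.51 and the edgeR adjusted p 0.059, and over all alternatives the adjusted p lay between 0.00209 and 0.059. Its transcript shared 18 sequences of 30 bases, which may overlap one another, with that of its closest measured relative, IAA14, which has 82% identical coding bases. Whether these lie where the 3′ tags come from, and whether reads were affected, was not examined.

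IAA16 (AT3G04730, chr3:1288155-1290891, minus strand, 5 exons), a close relative of both, was at 481, 469 and 430 CPM in the 4 h group, against 333, 329 and 321 CPM in the 0 h group. The groups did not overlap, and the 0 h libraries lay within 12 CPM of each other. The mean was 460 ± 26.4 CPM after 4 h and 327 ± 6.08 CPM after 0 h, a 1.41-fold rise (log2 fold change 0.49, SE 0.14, 95% interval 0.20 to 0.78, edgeR adjusted p = 0.0168). Leaving out 4 h replicate 1, 4 h replicate 2 or 0 h replicate 1 ended the call while the log2 fold change stayed between 0.46 and 0.50 (edgeR adjusted p = 0.055 to 0.0589, within a range of 0.00433 to 0.0589 over all alternatives).

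IAA17 (AT1G04250, AXR3, chr1:1136078-1138663, plus strand, 5 exons), known from mutants whose stabilised protein blocks root hair growth and gravity response, went the other way. It was at 27.3, 33.4 and 27.7 CPM in the 4 h group, against 40.4, 62.6 and 38.5 CPM in the 0 h group, without overlap. The mean was 29.5 ± 3.42 CPM after 4 h and 47.2 ± 13.4 CPM after 0 h, a 1.62-fold fall (log2 fold change -0.70, SE 0.24, 95% interval -1.18 to -0.22, edgeR adjusted p = 0.0408). Replicate 2 of the 0 h group stood above the other libraries, and without it the log2 fold change was -0.41 (edgeR adjusted p = 0.32, the highest of a range from 0.025). The call was also lost without any 1 of the 4 h replicates and in DESeq2, limma-voom and the thinned libraries, at log2 fold changes between -0.78 and -0.63.

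The other 9 repressors did not pass the test. IAA9 was at 160, 174 and 159 CPM in the 4 h group, against 131, 126 and 151 CPM in the 0 h group, without overlap (log2 fold change 0.27, edgeR adjusted p = 0.274). IAA27 was at 15.5, 12.6 and 5.93 CPM in the 4 h group, against 19, 22.6 and 18.6 CPM in the 0 h group, also without overlap (log2 fold change -0.74, edgeR adjusted p = 0.125). IAA13, partner of IAA12 in embryo and root patterning, was at 29.6, 36.1 and 54.4 CPM in the 4 h group, against 22.6, 35.9 and 18.6 CPM in the 0 h group. The second 0 h library reached into the 4 h range, and the log2 fold change of 0.58 (edgeR adjusted p = 0.157) became 0.93 (edgeR adjusted p = 0.0297) without it, the lowest of a range up to 0.545. The remaining 6, which include IAA14 and IAA28 of lateral root formation and IAA19 of shoot bending, had log2 fold changes between -0.59 (IAA19) and 0.29 (IAA10), each with overlapping groups. IAA14 and IAA28 were lowest in 4 h replicate 3, at 1.98 CPM (2 reads) and 29.7 CPM, the library in which the root markers summed to 272 CPM. IAA14 was also low in 0 h replicate 3, at 2.75 CPM, where the root markers summed to 421 CPM. A link to the root markers was not tested. IAA9, IAA10, IAA13, IAA27 and, among the ARF genes, ARF7 overlap a gene on the opposite strand, and the strand setting of the counting is not stated, so reads of such partners cannot be told apart.

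Summed over the 12 measured repressors, Aux/IAA transcript was at 1186, 1267 and 1176 CPM in the 4 h group, against 904, 981 and 903 CPM in the 0 h group. Without IAA7 and IAA16 the sum over the other 10 genes was 317, 338 and 302 CPM in the 4 h group, against 310, 336 and 295 CPM in the 0 h group, with overlap.

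**Figure D2:**
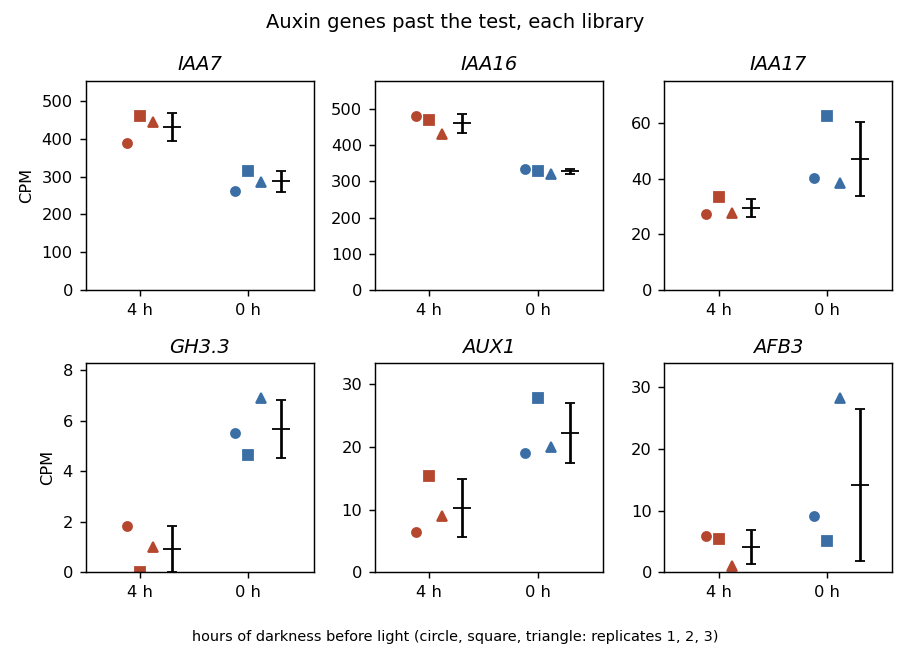
CPM (y axis, from 0, scale differing by panel) of the 6 auxin genes past the test in each library after 4 h and 0 h of darkness (x axis). Circles, squares and triangles are replicates 1, 2 and 3, and the bars show the mean with 1 SD (n = 3); the groups do not overlap except in AFB3, where 0 h replicate 3 stands far above the other libraries.

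Of the GH3 enzymes, which store or inactivate auxin as amino acid conjugates, 5 of 6 were measured, 1 fell and 4 did not pass the test, with a class median of -0.78. GH3.3 (AT2G23170, chr2:9863855-9866562, minus strand, 3 exons), one of the enzymes that auxin itself induces, had 4, 0 and 1 reads in the 4 h libraries (1.82, 0 and 0.989 CPM) and 9, 9 and 10 reads in the 0 h libraries (5.50, 4.62 and 6.88 CPM). All 0 h libraries were above all 4 h libraries, on few reads, 5 in sum after 4 h and 28 after 0 h. The fall was 4.75-fold (log2 fold change -2.25, SE 0.75, 95% interval -3.78 to -0.71, edgeR adjusted p = 0.0385). Of the 6 fits that each left out 1 library, that without 4 h replicate 1 kept the call, at -3.34, and the others gave -2.36 to -1.81, within a range of edgeR adjusted p of 0.0267 to 0.123 over all alternatives. DESeq2 gave it no adjusted p, and filterByExpr removed it. The transcripts of GH3.2 and GH3.3 share 27 sequences of 30 bases, which may overlap one another. Whether these lie where the 3′ tags come from, and whether reads were affected, was not examined.

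GH3.1 pointed the same way without passing the test. It had 0, 1 and 0 reads in the 4 h libraries and 3, 8 and 2 reads in the 0 h libraries, a ratio of 11.1 of 0 h over 4 h with a counting interval of 1.67 to 473 (edgeR adjusted p = 0.12), so its size is known only within that span. GH3.17, which conjugates auxin to glutamate, was at 9.56, 11.7 and 21.8 CPM in the 4 h group, against 11, 9.74 and 9.63 CPM in the 0 h group (log2 fold change 0.43, edgeR adjusted p = 0.478). GH3.2 was at 6.37, 4.51 and 5.93 CPM in the 4 h group, against 7.34, 6.15 and 6.19 CPM in the 0 h group (log2 fold change -0.20, edgeR adjusted p = 0.824). Both overlapped between the groups, as did GH3.5 (WES1), an enzyme that also acts on salicylic acid, at a log2 fold change of -0.78 (edgeR adjusted p = 0.375). The sum of the class, 23.7, 19 and 30.7 CPM in the 4 h group, against 31.8, 33.3 and 28.2 CPM in the 0 h group, overlapped.

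Promoters were searched on both strands for TGTCTC and TGTCGG, to which ARF proteins can bind, and for CACGTG, the G-box of light-regulated genes. The window was the 300 bases from 250 before to 50 after the RefSeq TAIR10.1 gene start. TGTCTC and TGTCGG begin alike but cannot match the same bases in the same orientation. TGTCTC was found in 8 of the 32 measured members (25%) and in 14.2% of 27443 protein-coding genes, TGTCGG in 6 (18.8%) and 5.12%, and CACGTG in 5 (15.6%) and 7.68%. Among the 6 genes past the test, each motif was found in 1 (16.7%), TGTCTC in GH3.3, TGTCGG in IAA16 and CACGTG in IAA7. All other matches among the members were in genes that did not pass the test. TGTCTC was also in GH3.1, GH3.2, GH3.5, IAA19, IAA20, IAA28 and AFB5, and CACGTG also in IAA14, IAA19, IAA20 and GH3.2. The TGTCTC matches of GH3.1 and IAA28 and the CACGTG match of IAA14 lay after the gene start. The promoters of GH3.3 and IAA7, the genes with the smallest p in the conjugating and repressor classes, are shown around the match, which is in capitals.
GH3.3: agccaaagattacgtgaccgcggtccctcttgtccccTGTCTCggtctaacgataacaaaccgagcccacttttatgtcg
IAA7: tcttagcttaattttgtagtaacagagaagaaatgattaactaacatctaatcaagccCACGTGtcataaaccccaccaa
The GH3.3 stretch is chr2:9866636-9866715 on the minus strand, with the first capital at -116 from the gene start, and the IAA7 stretch is chr3:8194526-8194605 on the plus strand, with the first capital at -22. A match of letters is a description and was not tested as a binding site. IAA19, which did not pass the test, held 3 copies of TGTCTC.

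Of the 3 AUX1/LAX importers among the members, AUX1 fell and the others did not pass the test. The class median of -1.07 is the value of LAX2. The sum of the class, 29.6, 57.8 and 50.4 CPM in the 4 h group, against 55, 47.7 and 54.4 CPM in the 0 h group, overlapped. LAX1, an importer listed with the other transport genes, was at 74.6, 97.5 and 88 CPM in the 4 h group, against 67.2, 73.3 and 63.3 CPM in the 0 h group. It was higher after 4 h without overlap and did not pass the test (log2 fold change 0.34, edgeR adjusted p = 0.23). AUX1 (AT2G38120, chr2:15972876-15977180, plus strand, 9 exons), the influx carrier needed for root gravity response, was at 6.37, 15.4 and 8.90 CPM in the 4 h group, against 19.0, 27.7 and 20 CPM in the 0 h group. The groups did not overlap, and replicate 2 was the highest library in each. The mean was 10.2 ± 4.63 CPM after 4 h and 22.2 ± 4.78 CPM after 0 h, a 2.3-fold fall (log2 fold change -1.20, SE 0.34, 95% interval -1.91 to -0.50, edgeR adjusted p = 0.0148). The call was lost in DESeq2 (-1.17), in the thinned libraries (-0.94), and without 4 h replicate 1 (-0.86, edgeR adjusted p = 0.126) or 0 h replicate 2 (-0.99), within a range of adjusted p of 0.0055 to 0.126.

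LAX3, known from the emergence of lateral roots, was at 21.8, 39.7 and 38.6 CPM in the 4 h group, against 30.0, 16.9 and 29.6 CPM in the 0 h group, with overlap (log2 fold change 0.35, SE 0.28, edgeR adjusted p = 0.439). LAX2, known from cotyledon veins, had 3 reads in each 4 h library and 10, 6 and 7 reads in the 0 h libraries, without overlap (log2 fold change -1.07, SE 0.68, edgeR adjusted p = 0.316). The root marker LRX1, a root hair wall protein, was also lower after 4 h (4.10, 4.51 and 0 CPM in the 4 h group, against 9.78, 31.8 and 5.50 CPM in the 0 h group), while the root marker TIP2;3, a tonoplast aquaporin, was higher (91.9, 126 and 69.2 CPM in the 4 h group, against 53.2, 66.2 and 66.7 CPM in the 0 h group). NRT2.1, a nitrate transporter, was at 2.73, 1.81 and 0 CPM in the 4 h group, against 4.89, 4.10 and 5.50 CPM in the 0 h group, without overlap (log2 fold change -1.40, edgeR adjusted p = 0.201). COBL9, of root hair growth, had 2 reads in the 4 h group and 13 in the 0 h group. Of these 13, 10 were in 0 h replicate 2 and 0 in 0 h replicate 3. The ratio was 5.57 of 0 h over 4 h, with a counting interval of 1.26 to 50.8 that leaves out spread among libraries. The groups of COBL9 overlapped, and it did not pass the test (log2 fold change -2.23, edgeR adjusted p = 0.243). TIP2;2 and PYK10 had log2 fold changes of -0.16 and -0.13. Of the 6 root markers kept, 5 lay below 0, as did 5720 of the 10622 genes tested. LRX1 was called lower and TIP2;3 higher, and the part of these markers in the AUX1 result was not tested.

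Of the PIN exporters among the members, PIN3, PIN4 and PIN7 did not pass the test, by edgeR, DESeq2 or limma-voom. None of these had an unadjusted edgeR p under 0.05. PIN2 and PIN6, listed with the other transport genes, had log2 fold changes of -0.78 and -1.26. Both overlapped between the groups and did not pass the test (edgeR adjusted p = 0.152 and 0.259), though the unadjusted edgeR p of PIN2 was 0.041. PIN7 was at 100, 86.7 and 92.0 CPM in the 4 h group, against 89.9, 110 and 74.3 CPM in the 0 h group. Its log2 fold change of 0.02 had a 95% interval of -0.35 to 0.40 (edgeR adjusted p = 0.953), and its sign turned with the scaling, to -0.06 with upper quartile factors. PIN4 was at 89.6, 65.9 and 76.1 CPM in the 4 h group, against 70.3, 67.7 and 57.1 CPM in the 0 h group, with an interval of -0.13 to 0.64 (log2 fold change 0.26, edgeR adjusted p = 0.39). PIN3, which redirects auxin in bending shoots and roots, was at 38.7, 29.8 and 35.6 CPM in the 4 h group, against 47.7, 41.0 and 39.2 CPM in the 0 h group, without overlap (log2 fold change -0.28, edgeR adjusted p = 0.421). A change of 1.5-fold in either direction is outside the interval of PIN7, whereas a 1.5-fold rise is within that of PIN4 and a 1.5-fold fall within that of PIN3 (-0.72 to 0.16).

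The 4 ARF genes measured of 6 did not pass the test either, by the same 3 tools, and 1 of them, ARF2, had an unadjusted edgeR p under 0.05. ARF2, a repressor that limits organ and seed size, was at 288, 286 and 305 CPM in the 4 h group, against 245, 224 and 219 CPM in the 0 h group. Its groups did not overlap, and the log2 fold change was 0.35 (SE 0.15, 95% interval 0.05 to 0.66, edgeR adjusted p = 0.107). ARF6, an activator of flower and stem growth, was at 73.3, 75.9 and 76.1 CPM in the 4 h group, against 77, 72.8 and 88.1 CPM in the 0 h group (log2 fold change -0.08, 95% interval -0.44 to 0.29, edgeR adjusted p = 0.82). ARF7, an activator in tropisms and lateral roots, had a log2 fold change of 0.17 (95% interval -0.27 to 0.62, edgeR adjusted p = 0.648). ARF8, which acts with ARF6, had one of 0.01 (95% interval -0.75 to 0.76, edgeR adjusted p = 0.994), which turned to -0.07 with upper quartile factors.

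Of the 4 receptors, AFB3 fell and the others did not pass the test. TIR1, the first auxin receptor identified, was at 129, 148 and 130 CPM in the 4 h group, against 102, 117 and 127 CPM in the 0 h group. The groups were apart by a narrow gap, and the log2 fold change was 0.23 (SE 0.17, 95% interval -0.11 to 0.57, edgeR adjusted p = 0.389). AFB2 was at 13.2, 6.32 and 10.9 CPM in the 4 h group, against 10.4, 7.18 and 13.8 CPM in the 0 h group, with overlap (log2 fold change 0.03, 95% interval -0.74 to 0.81, edgeR adjusted p = 0.967, and -0.04 with upper quartile factors).

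AFB3 (AT1G12820, chr1:4368760-4371298, minus strand, 4 exons), a receptor linked to the nitrate response of roots, had 13, 6 and 1 reads in the 4 h libraries (5.92, 5.42 and 0.989 CPM) and 15, 10 and 41 reads in the 0 h libraries (9.17, 5.13 and 28.2 CPM). The groups overlapped, since 0 h replicate 2 lay below 2 of the 4 h libraries, and 0 h replicate 3 held most of the reads of its group. The fitted fall was 3.01-fold (log2 fold change -1.59, SE 0.55, 95% interval -2.72 to -0.46, edgeR adjusted p = 0.0464). Without 0 h replicate 3 it was -0.64 with an edgeR adjusted p of 0.526, the highest of a range from 0.00495, and without 4 h replicate 3 it was -1.24 (edgeR adjusted p = 0.18). The gene overlaps AT1G12810 and AT1G04977 on the opposite strand. AFB5, the receptor that senses the herbicide picloram, had 1, 0 and 0 reads in the 4 h libraries and 4, 5 and 2 reads in the 0 h libraries, a ratio of 9.42 of 0 h over 4 h with a counting interval of 1.37 to 406 (edgeR adjusted p = 0.144).

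Leaving out 1 library at a time showed how far the 6 calls rest on single libraries. None of the 6 was called in all of these 6 fits, and none changed direction in any of them. IAA7 was called in 5 of them, and over these fits its log2 fold change lay between 0.51 and 0.67 and that of IAA16 between 0.46 and 0.54, so that both moved little. The change ranged from -0.82 to -0.41 in IAA17, from -3.34 to -1.81 in GH3.3, from -1.59 to -0.86 in AUX1 and from -2.02 to -0.64 in AFB3.

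**Figure D3:**
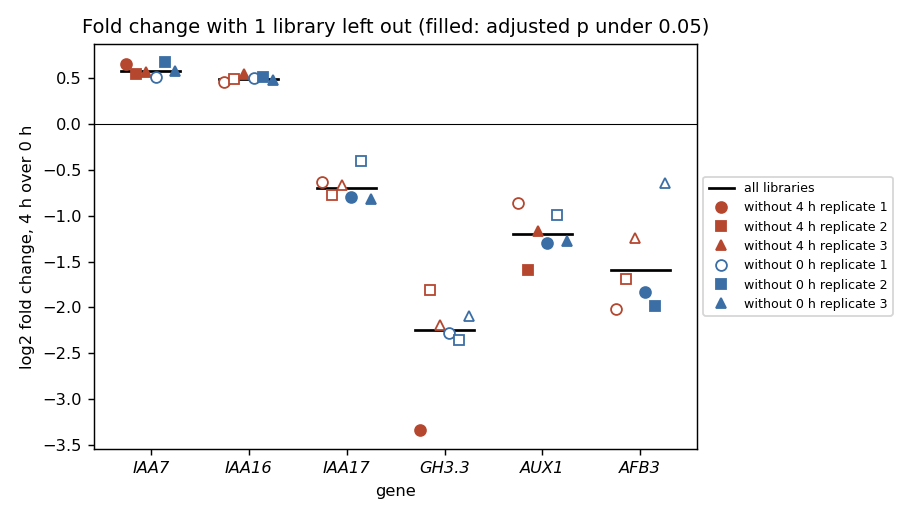
Log2 fold change (y axis, 4 h over 0 h of darkness) of the 6 auxin genes past the test (x axis) when 1 library was left out. Each symbol is 1 library left out, filled where the edgeR adjusted p stayed under 0.05, and the black line is the value with all libraries; the symbols lie close together in IAA7 and IAA16 and far apart in GH3.3 and AFB3.

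Outside the members, 138 other genes of auxin synthesis, turnover, transport, signalling and response were listed, of which 63 were measured, 7 rose and 5 fell. That is 19% called, beside 16.6% of all genes. Of the corepressors that Aux/IAA proteins recruit, 5 were measured, TPL and TPR1 rose, and TPR2, TPR3 and TPR4 did not pass the test, at log2 fold changes of -0.07, -0.32 and -0.13. TPL (AT1G15750) was at 403, 455 and 576 CPM in the 4 h group, against 293, 262 and 359 CPM in the 0 h group (log2 fold change 0.65, SE 0.16, edgeR adjusted p = 0.00579). TPR1 (AT1G80490), its close relative, was at 90.1, 115 and 124 CPM in the 4 h group, against 67.9, 60.5 and 66.7 CPM in the 0 h group (log2 fold change 0.74, SE 0.18, edgeR adjusted p = 0.00525). Neither gene overlapped between the groups, and TPL lost its call without 4 h replicate 3 (log2 fold change 0.50, edgeR adjusted p = 0.0591, the highest of a range from 0.000659).

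Subunits and helpers of the receptor complex fell in 2 cases. SGT1B (AT4G11260), a co-chaperone needed for normal auxin response, was at 29.1, 17.2 and 20.8 CPM in the 4 h group, against 41.6, 31.8 and 68.1 CPM in the 0 h group (log2 fold change -1.0, SE 0.27, edgeR adjusted p = 0.0113). RBX1 (AT5G20570), the RING subunit of cullin ubiquitin ligases, was at 19.6, 13.5 and 8.90 CPM in the 4 h group, against 34.8, 16.9 and 39.2 CPM in the 0 h group, with overlap (log2 fold change -1.01, SE 0.32, edgeR adjusted p = 0.0315). As in AFB3, 0 h replicate 3 was the highest library of both, and without it the changes were -0.65 and -0.78 and not past the test (edgeR adjusted p = 0.123 and 0.157, within ranges of 0.000943 to 0.123 and 0.00321 to 0.157). The 12 measured genes of this list, TPL and TPR1 included, had 2 rises, 2 falls and a median of -0.14.

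Among 11 measured response genes of 42 listed, 2 rose and 9 did not pass the test. HB-2 (AT4G16780), a homeodomain factor known from shade responses, was at 23.7, 35.2 and 22.7 CPM in the 4 h group, against 6.11, 6.15 and 8.95 CPM in the 0 h group. It rose 3.83-fold (log2 fold change 1.94, SE 0.33, edgeR adjusted p = 0.000136), the largest fitted rise among the members and these lists. SAUR71 (AT1G56150), of the small auxin up RNA family, was at 51.0, 80.4 and 67.2 CPM in the 4 h group, against 33.6, 28.7 and 36.5 CPM in the 0 h group (log2 fold change 0.99, SE 0.22, edgeR adjusted p = 0.00196). HB-2, SAUR71, TPR1 and WAT1 stayed called in all 16 alternatives, unlike any of the 6 members.

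Of 14 measured genes of other transport steps, 1 fell and 1 rose. WAT1 (AT1G75500), which exports auxin from the vacuole, was at 29.6, 36.1 and 46.5 CPM in the 4 h group, against 66.6, 83.6 and 66.7 CPM in the 0 h group (log2 fold change -0.99, SE 0.21, edgeR adjusted p = 0.00149). ABCB21 (AT3G62150), an ABC transporter of auxin, was at 49.6, 33.4 and 48.4 CPM in the 4 h group, against 27.5, 28.7 and 24.1 CPM in the 0 h group (log2 fold change 0.72, SE 0.23, edgeR adjusted p = 0.0302). Neither overlapped between the groups.

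The other ARF and Aux/IAA genes, 6 of 15 measured, had 1 rise and 1 fall. ARF9 (AT4G23980) was at 28.7, 38.8 and 33.6 CPM in the 4 h group, against 14.7, 22.6 and 19.3 CPM in the 0 h group (log2 fold change 0.81, SE 0.26, edgeR adjusted p = 0.0311). ARF3 (AT2G33860), called ETTIN from its role in the pistil, was at 18.7, 24.4 and 20.8 CPM in the 4 h group, against 37.9, 34.4 and 37.2 CPM in the 0 h group (log2 fold change -0.80, SE 0.24, edgeR adjusted p = 0.0223). The groups of both were apart.

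Of 12 measured synthesis genes, 1 rose and 11 did not pass the test. It was TSB1 (AT5G54810), the tryptophan synthase subunit upstream of auxin, at 455, 502 and 403 CPM in the 4 h group, against 307, 353 and 345 CPM in the 0 h group (log2 fold change 0.44, SE 0.15, edgeR adjusted p = 0.0408). Of 8 measured genes of inactivation and release, 1 fell. UGT74E2 (AT1G05680), a glucosyltransferase of the auxin precursor indole-3-butyric acid, had 1 read in each 4 h library and 10, 7 and 9 reads in the 0 h libraries, in all 3 reads of the 4 h group against 26 of the 0 h group, with a ratio of 7.42 of 0 h over 4 h with a counting interval of 2.28 to 38.3 (edgeR adjusted p = 0.0205). Calls of ABCB21, ARF9, ARF3, RBX1 and TSB1 were each lost in 5 or more of the 16 alternatives, and that of UGT74E2 in 3 of 14.

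**Figure D4:**
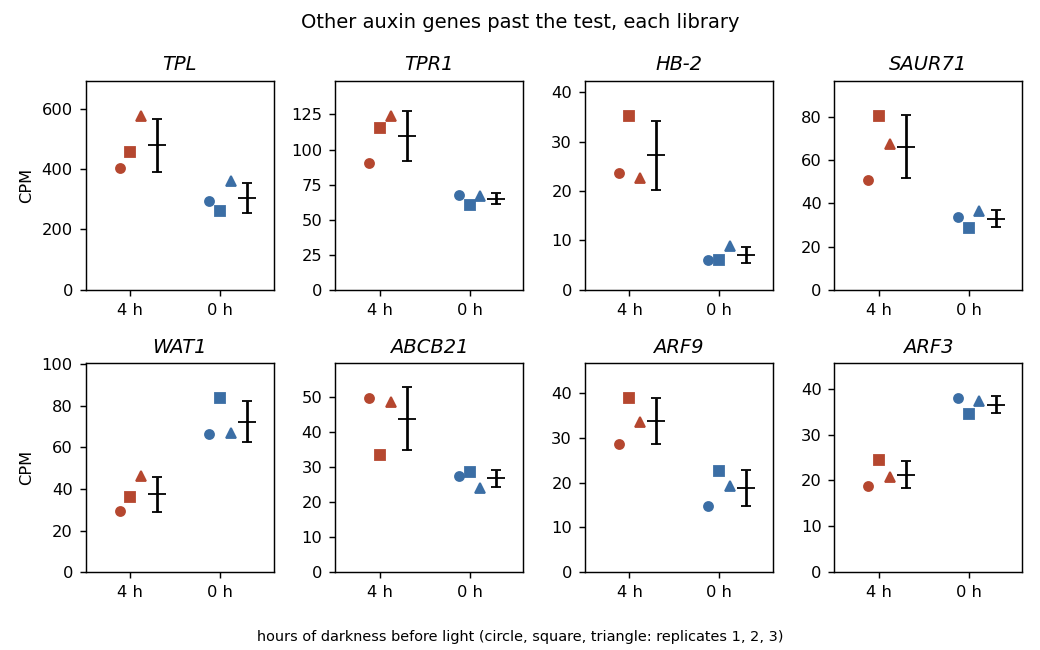
CPM (y axis, from 0, scale differing by panel) of 8 other auxin genes past the test in each library after 4 h and 0 h of darkness (x axis). Circles, squares and triangles are replicates 1, 2 and 3, and the bars show the mean with 1 SD (n = 3); TPL, TPR1, HB-2, SAUR71, ABCB21 and ARF9 are higher after 4 h and WAT1 and ARF3 lower, without overlap between the groups.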

How the data were processed

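Libraries of 3′ transcript tags were prepared by bulk MARS-seq. Tools listed in the submitters' processing notes are STAR, HTSeq, cutadapt 1.8.3 and bcl2fastq 2.17.1.14, and the methods of the study name the Araport 11 reference. The authors deposited raw counts of reads per gene, with no filter on molecular identifiers, so reads may be copies of 1 molecule, and intervals and floors cover counting error only. The authors also deposited a signal (counts divided by a size factor), whose size factors served as an alternative scaling, and regularised log2 values, which were not used here. Symbols and positions came from RefSeq TAIR10.1, where 11108 of 11167 identifiers matched.

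Genes that reached 5 reads in 1 or more libraries were kept (10622, with 545 below), scaled with TMM factors and tested with edgeR 4.0.16 (quasi-likelihood, R 4.3.3), the group as the only term, with Benjamini-Hochberg adjustment at 0.05 over all genes. The common dispersion was 0.0272. The study used DESeq2, run here as an alternative (1.42.0). CPM use the scaled library sizes and are not divided by length, so sums and rankings of CPM over genes are of tags and not of transcript amounts. Counting intervals are exact (Clopper-Pearson, 95%). The script was tested on simulated data. No replicate pair agreed within sampling noise (chi-square per degree of freedom 3.17 to 6.20).

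The members and lists were chosen with earlier results of these data known. Of 141 other auxin genes listed, 3 were dropped because the reference gives their identifier another name. The root markers PER57 and PER27 were dropped for the same reason. Values per library are given for each gene past the test and for the 2 members of each class with the highest mean CPM. Values per library of other members, and the values of LAX1, PIN2 and PIN6, were added after they were seen. The values of 1 member are not reported here, though it enters the counts and medians. Protein motifs were not searched, since no protein table was used here. Alternatives were DESeq2, limma-voom (limma 3.58.1), 3 other scalings, filterByExpr, no filter, libraries thinned to the smallest, leaving out organelle genes, the replicate number as a block and leaving out each library.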

Additional observations from a re-analysis of the deposited data

How the results depend on the processing

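The number of members that rose, 2, was kept in every alternative that used all libraries and lay between 0 and 3 when 1 library was left out. The number that fell, 4, was 0 in DESeq2 (IAA17, AUX1 and AFB3 at adjusted p = 0.12, 0.0588 and 0.0854, GH3.3 without one), 0 in the thinned libraries, 1 in limma-voom, 2 with filterByExpr (22 members tested) and 1 to 3 with 1 library left out. At an unadjusted p under 0.05, 7 members were lower in edgeR, 4 in DESeq2, 4 in the thinned libraries and 6 in limma-voom. AFB3 was not called without a filter or without organelle genes. Other auxin genes called numbered 12, and 6 to 13 with 1 library left out, and all genes called numbered 1758, and 1211 to 1548 with 1 library left out. No gene past the test changed direction. Of those not past it, the log2 fold change of PIN7 turned to -0.06 (upper quartile) and -0.02 (filterByExpr), that of ARF8 to -0.07 (upper quartile), -0.0026 (deposited size factors), -0.03 (filterByExpr) and -0.44 (thinned), that of AFB2 to -0.04 (upper quartile), -0.02 (thinned) and -0.01 (replicate block) and that of IAA20 to 0.04 (thinned), and the cause was not tested. With 1 library left out, IAA14 lay between -0.34 and 0.77, IAA20 between -0.62 and 0.33, PIN7 between -0.10 and 0.20, ARF8 between -0.13 and 0.20, ARF6 between -0.12 and 0.0039 and AFB2 between -0.26 and 0.28. Deviations of samples of the same replicate number had correlations across genes of -0.0121, 0.0406 and 0.0609, and those of different numbers lay between -0.0755 and 0.0453. With 3 samples per group, these values cannot decide whether the numbers pair the samples. With the replicate number as a block 1979 genes were called in place of 1758, and the same 6 members. At this depth GH3.1, GH3.3, LAX2, AFB5 and UGT74E2 rest on few reads.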

Other observations

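IAA7 and IAA16 rose by similar amounts, 1.49-fold and 1.41-fold, but not all relatives within a family moved alike. The log2 ratio of IAA17 to IAA16 was -4.14, -3.81 and -3.96 in the 4 h libraries and -3.04, -2.39 and -3.06 in the 0 h libraries, a difference of -1.14. The log2 ratio of AUX1 to LAX3 was -1.78, -1.37 and -2.12 in the 4 h libraries and -0.66, 0.71 and -0.57 in the 0 h libraries, a difference of -1.58. Neither ratio overlapped between the groups. Both pairs were chosen after their values were seen, so the ratios are a description with no test, and a ratio within a library does not depend on how the libraries were scaled.

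IAA7 and IAA17 each lie beside another Aux/IAA gene that points away from them. IAA2 lies 12510 bases from IAA7 and IAA3 lies 6388 bases from IAA17, with 1 gene between in each case. IAA2 and IAA3 were not analysed here, so whether neighbours moved together cannot be read from these values.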
